A study of Mus musculus with 6 samples.

Results

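Macrophages of adipose tissue are described here by 10 marker genes, chosen by name from a table of 22134 genes in RNA sequencing of mouse mesenteric fat, and all 10 were present in it. Timd4, Folr2 and Cd163 mark tissue-resident macrophages, Mrc1, Retnla, Arg1 and Chil3 mark alternative activation, Ly6c2 marks recruited monocytes, and Adgre1 and Csf1r mark macrophages in general. The 6 libraries came from wild-type mice. Creeping fat, fat of the mesentery that wraps damaged gut, was taken from colons cauterised repeatedly and makes up 3 libraries, and mesenteric adipose tissue without injury, called control here, makes up the other 3. The labels give no age and no sex and name no individual animals. The p-values therefore rest on the spread between samples alone, and part of that spread may be technical. Values are FPKM, fragments of a gene scaled to its length and to the size of the library, so levels of different genes can be compared per length. Values of a group are given in the order of libraries 1, 2 and 3.

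As background, many macrophages of adult tissues are seeded before or around birth and renew locally, and such cells often carry the phosphatidylserine receptor Timd4, the folate receptor Folr2 and the haemoglobin scavenger receptor Cd163. Others arise from blood monocytes that enter through the chemokine receptor Ccr2 and carry Ly6C until they mature. The cytokines IL-4 and IL-13 act through the transcription factor STAT6 and drive the program called alternative activation, for which Arg1, Retnla, Chil3 and Mrc1 are the usual mouse markers. In lean fat, resident macrophages lie among adipocytes and vessels, and survival of nearly all macrophages depends on the receptor Csf1r.

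The 10 genes differed in direction. In creeping fat Arg1, Ly6c2, Adgre1 and Mrc1 rose, which is 4 of the 10, against 9.35% of all 12812 genes tested that were higher (limma on log2(FPKM + 1), Benjamini-Hochberg adjusted p under 0.05). None of the 10 was lower at that threshold by limma, or by limma's voom on reads recovered from the FPKM, against 6.81% of all genes tested. At an unadjusted p under 0.05 in limma 5 were higher and 2, Cd163 and Retnla, were lower, where 17% of all genes tested were higher and 13.7% lower, so the count of lower genes was near that of all genes. The libraries of the groups did not overlap in 5 of the 10 genes, all with creeping fat above control, where 20.2% of all genes tested lay wholly above and 16.9% wholly below. The median log2 fold change, creeping fat minus control, was 0.80 over the 10 genes and 0.017 over all genes tested. In bulk tissue, fewer cells of a type and less RNA per cell cannot be told apart.

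**Figure D1:**
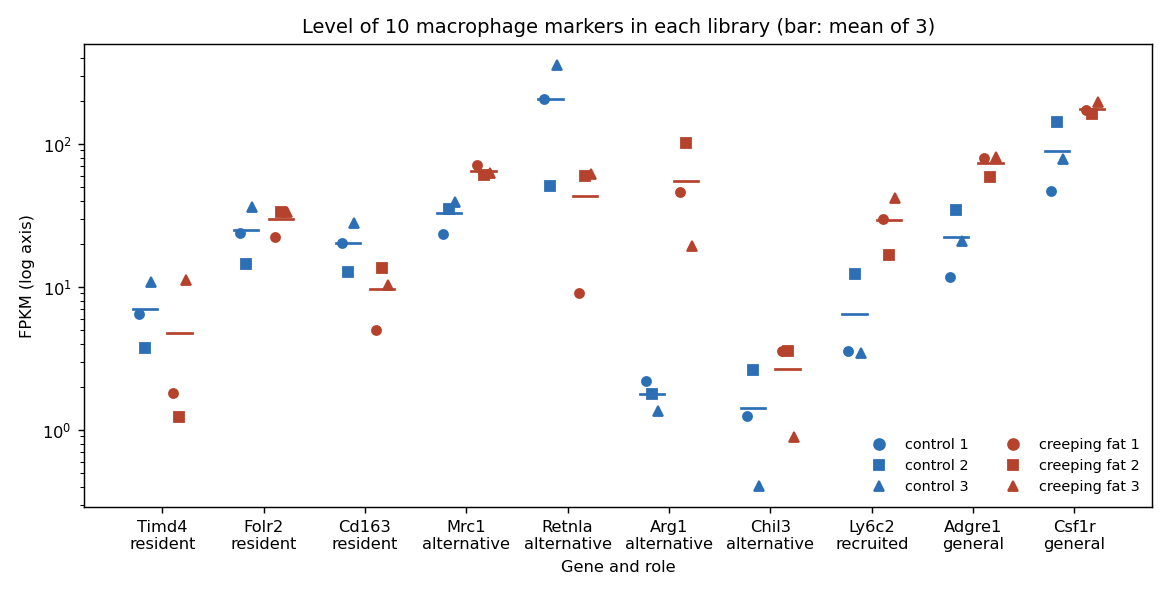
FPKM of the 10 genes on a log axis, each point 1 library (blue control, red creeping fat, symbol by library number) and each bar the mean of 3. The groups are separate in Mrc1, Arg1, Ly6c2, Adgre1 and Csf1r, and they overlap in Timd4, Folr2, Cd163, Retnla and Chil3.

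The libraries held 31186018 to 43415696 reads, with both groups spread over that range, and each of the 10 genes rested on 27 (Chil3, control 3) to 24833 reads (Csf1r, creeping fat 3) per library. For a transcript 1 kilobase long, 3 reads amount to 0.0691 to 0.0962 FPKM, a limit that covers counting error only. Transcripts of other organs separated the groups. The share of all FPKM in seminal vesicle genes was 4.91% to 8.87% for creeping fat, where no control passed 0.0272%. For exocrine pancreas genes it was 1.35% or less in creeping fat, against 4.24% to 10.8% in controls. Their part in the results on macrophage genes was not tested. With those genes left out and the rest rescaled, the same number of the 10 genes, 4, was higher. Control 2 stood apart from the other controls in genes of sinus and lymphatic cells, named here after their values were seen. Marco, a scavenger receptor of lymph node and spleen macrophages, stood at 304 FPKM in control 2 against 10.3 and 49.2 in control 1 and 3, and Stab2, a scavenger receptor of sinusoidal endothelium, at 48.4 against 1.36 and 5.35. Calls on the 10 genes and their near copies that change without control 2 are given beside them.

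Both general macrophage markers were higher in every creeping fat library than in any control. Adgre1, which encodes the surface protein F4/80 and lies on chromosome 17 from 57358581 to 57483529 (GRCm38.p6, protein coding), stood at 80.1, 58.4 and 80.7 FPKM across the creeping fat libraries. Across the controls it stood at 11.8, 34.6 and 20.9 FPKM. Every creeping fat library lay above every control, and control 2 was the highest control. Adgre1 rose by 1.77 ± 0.37 on the log2 scale (moderated SE; limma adjusted p = 0.0205). Without creeping fat 1, creeping fat 3 or control 3 the fold change was 1.70, 1.69 and 1.78 and no longer passed (limma adjusted p = 0.084, 0.0803 and 0.0779).

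Csf1r, the receptor of the growth factors Csf1 and Il34, was the most abundant of the 10 genes in creeping fat. It stood at 173, 162 and 195 FPKM across the creeping fat libraries and at 47.1, 141 and 78.7 across the controls. The groups did not overlap, but control 2 came close to the lowest creeping fat library. Csf1r did not pass the test (log2 fold change 1.12 ± 0.37, limma adjusted p = 0.0917). It passed without control 2 (1.52, limma adjusted p = 0.0032) and stood at 0.73 without control 1. Reads of Hmgxb3, whose exons overlap Csf1r on the opposite strand in GENCODE M21, cannot be told apart from Csf1r reads, since the use of strand in counting was not given in the sources used here.

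Of 12 further general macrophage genes 8 rose and none fell, with a median log2 fold change of 1.75. Lyz2, lysozyme, rose by 2.20 ± 0.33, from 676 ± 181 to 3120 ± 913 FPKM (SD, n = 3; limma adjusted p = 0.00758). Ctss, the lysosomal protease cathepsin S, rose by 2.19 ± 0.48, from 95.5 ± 59.7 to 406 ± 137 FPKM (limma adjusted p = 0.0248), but not without control 1, control 3, creeping fat 1 or creeping fat 3. Cd68, Fcgr1, Tyrobp, Fcer1g, C1qa and C1qb were the others. The count was 2 without control 3, creeping fat 1 or creeping fat 3, and 5 without control 1 or creeping fat 2, with no filter on low values or after quantile normalization. Of 2 relatives of Adgre1, Adgre4 (3.26 ± 0.995 against 2.15 ± 1.79 FPKM) and Adgre5 (36.2 ± 3.93 against 43.1 ± 8.75 FPKM), neither passed (limma adjusted p = 0.417 and 0.461). Adgre4 passed without control 2, with a fold change of 0.99 (limma adjusted p = 0.0255).

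Of 11 tested genes of the Csf1 axis and of macrophage lineage factors 1 rose and 2 fell (median 0.33). Runx1, a transcription factor of blood cell development, rose by 1.95 ± 0.40 (24.8 ± 6.25 against 6.21 ± 3.98 FPKM, limma adjusted p = 0.0202), but not without creeping fat 1, creeping fat 2 or control 3. Il34, the second ligand of Csf1r, fell by 0.64 ± 0.16 (3.13 ± 0.355 against 5.47 ± 0.859 FPKM, limma adjusted p = 0.0381), a call lost without control 3 or any creeping fat library. Cebpa, a transcription factor of myeloid cells and of adipocytes, fell by 1.69 ± 0.28 (71.9 ± 14.6 against 237.9 ± 69.0 FPKM, limma adjusted p = 0.00991). Without control 2, 5 genes of the axis were higher and 3 lower.

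Ly6c2, the marker of recruited monocytes, lies on chromosome 15 from 75108161 to 75112066 beside its near copy Ly6c1. It encodes a form of Ly6C, the antigen by which fresh blood monocytes are sorted. Over part of their length the 2 genes cannot be separated by reads of 50 bases. Their coding sequences have 396 bases each and differ at 9 of them (97.7% identical), and 31.2% of the 50-base windows of Ly6c2 transcripts also occur in another gene, nearly always Ly6c1. The longest run without a difference is 188 bases. Bases 1 to 120 of each coding sequence (GENCODE M21 transcripts) hold 6 of the 9 differences, the most of any stretch of that length. They are shown with the bases that differ in capitals.
Ly6c2: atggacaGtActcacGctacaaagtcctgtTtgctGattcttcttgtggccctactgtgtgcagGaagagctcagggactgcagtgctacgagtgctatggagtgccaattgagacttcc
Ly6c1: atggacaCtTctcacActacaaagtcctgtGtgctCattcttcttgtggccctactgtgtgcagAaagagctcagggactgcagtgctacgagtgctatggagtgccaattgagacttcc

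Ly6c2 stood at 29.8, 16.8 and 41.9 FPKM across the creeping fat libraries and at 3.56, 12.3 and 3.46 FPKM across the controls. Creeping fat lay above control in every library, with the smallest gap between creeping fat 2 and control 2. Ly6c2 rose by 2.15 ± 0.50 (limma adjusted p = 0.0304). The call was lost without control 1, control 3, creeping fat 1 or creeping fat 3 (fold changes 1.90, 1.88, 2.10 and 1.86, limma adjusted p = 0.095, 0.114, 0.108 and 0.107), and also with no filter on low values (limma adjusted p = 0.0592). Without control 2 the fold change was 2.67 (limma adjusted p = 0.00184). Ly6c1, which blood endothelium expresses, stood at 67.8, 47.4 and 61.5 FPKM in creeping fat and 69.2, 22.5 and 80.2 FPKM in controls, and did not pass (0.21 ± 0.46, limma adjusted p = 0.813). Its fold change was -0.35 without control 2. Ly6a, a neighbouring Ly6 gene also known as Sca-1, did not pass (257 ± 65.5 against 140.5 ± 56.5 FPKM, limma adjusted p = 0.135). How reads common to Ly6c1 and Ly6c2 were assigned was not given in the sources used here, so the level of Ly6c2 is uncertain.

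Other monocyte genes moved in the same direction as Ly6c2. Of 17 tested, 9 rose and none fell, with a median of 1.44, and the count lay between 6 without creeping fat 1 and 12 without control 2. Clec4e, the pattern receptor Mincle, rose by 2.46 ± 0.22 (7.53 ± 2.20 against 0.526 ± 0.148 FPKM, limma adjusted p = 0.00145). Thbs1, thrombospondin, rose by 2.21 ± 0.41 (217 ± 99.2 against 46.3 ± 22.5 FPKM, limma adjusted p = 0.0141), but not without control 1. Ccr2, named after its values were seen, stood at 19.3, 21.5 and 16.6 FPKM in creeping fat and 3.73, 7.17 and 9.49 FPKM in controls, and rose by 1.44 ± 0.29 (limma adjusted p = 0.0198). The remaining genes that rose were Vcan, Ccl12, Fn1, Cx3cr1, F10 and Ace, of which Vcan, Fn1 and Thbs1 are also matrix genes of fibroblasts.

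The resident markers were spread out. Timd4, on chromosome 11 from 46810786 to 46844333, encodes the receptor TIM-4, by which resident macrophages bind dying cells. It stood at 1.82, 1.24 and 11.2 FPKM across the creeping fat libraries and at 6.43, 3.74 and 10.9 FPKM across the controls. Creeping fat 1 and 2 lay below all controls, and creeping fat 3 lay above all of them, at 9.01 times the lowest creeping fat library. The highest library rested on 838 reads in creeping fat and 1076 in controls, the lowest on 99 and 266. Timd4 did not pass the test (log2 fold change -0.81 ± 0.66, limma adjusted p = 0.474). Without creeping fat 3 the fold change was -1.57, and it still did not pass (limma adjusted p = 0.0743). It was nearer to 0 without creeping fat 2 (-0.35), control 3 (-0.48) or creeping fat 1 (-0.52). Creeping fat 3 was also the creeping fat library with the most Marco and Stab2 (22.8 and 6.26 FPKM against at most 6.65 and 1.77 in creeping fat 1 and 2). In control 2, the library with the most of both, Timd4 was the lowest of the controls. The part of sinus and lymphatic cells in the values of Timd4 was not tested. Of the relatives of Timd4, Havcr1 stood at 0.679 ± 0.484 against 0.994 ± 0.375 FPKM (limma adjusted p = 0.56), and Timd2 was under 1 FPKM in every library.

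Folr2, on chromosome 7 from 101839988 to 101857190, encodes folate receptor beta. It stood at 22.2, 33.5 and 33.6 FPKM across the creeping fat libraries and at 24.0, 14.4 and 36.3 FPKM across the controls. The 3 creeping fat libraries fell inside the range of the controls. The fold change was 0.31 ± 0.34 (limma adjusted p = 0.60), from -0.014 without control 2 to 0.62 without control 3. Exons of Gm10602 overlap Folr2 on the opposite strand. The related gene Folr1, an epithelial folate receptor, rose by 2.14 ± 0.16 (3.87 ± 0.625 against 0.0964 ± 0.0602 FPKM, limma adjusted p = 0.000935), and no 50-base window of Folr2 transcripts occurs in another gene.

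Cd163, on chromosome 6 from 124304636 to 124330529, encodes the receptor that clears haemoglobin bound to haptoglobin. It stood at 5.02, 13.6 and 10.4 FPKM across the creeping fat libraries and at 20.4, 12.6 and 28.2 FPKM across the controls. The overlap came from creeping fat 2 against control 2 alone, since creeping fat 1 and 3 lay below every control. Cd163 did not pass the test (-1.03 ± 0.40, limma adjusted p = 0.131). Without control 2 it passed (-1.32, limma adjusted p = 0.0298), and with creeping fat 2 left out as well the fold change was -1.59 (limma adjusted p = 0.00616). Without creeping fat 1 it was -0.66 and without control 3 -0.77 (limma adjusted p = 0.335 and 0.349). Its relative Cd163l1 went the other way and rose by 1.17 ± 0.26 (2.72 ± 1.12 against 0.626 ± 0.267 FPKM, limma adjusted p = 0.0256), but not without control 1, control 3, creeping fat 1 or creeping fat 3.

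Of 20 further genes of resident macrophages 4 rose and 1 fell, with a median of -0.14. Pf4, a chemokine that resident macrophages share with platelets, rose by 1.83 ± 0.33 (76.1 ± 16.7 against 21.4 ± 8.22 FPKM, limma adjusted p = 0.0124), but not without creeping fat 1. Fcrls, an Fc receptor-like gene, rose by 1.62 ± 0.34 (27.4 ± 3.03 against 9.01 ± 4.97 FPKM, limma adjusted p = 0.0222), but not without control 1 or any 1 creeping fat library. Gas6, the ligand of the efferocytosis receptor Mertk, which fibroblasts also make, and the transcription factor gene Maf were the others that rose. Cd209d, a C-type lectin, fell by 0.76 ± 0.17 (2.03 ± 0.486 against 4.08 ± 0.214 FPKM, limma adjusted p = 0.0242), a call lost by voom and without control 1, control 3, creeping fat 1 or creeping fat 2. The counts were 7 higher and 4 lower without control 2, and 1 higher and 0 lower without creeping fat 1. Several genes of the list were far higher in control 2, among them Lyve1, a hyaluronan receptor that lymphatic vessels share, at 106.5 FPKM there against 28.5 and 42.5 in control 1 and 3. In creeping fat Lyve1 stood at 18.5, 16.9 and 24.1 FPKM, below every control, and did not pass (-1.32 ± 0.45, limma adjusted p = 0.0962).

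Macrophages of the peritoneal cavity also carry Timd4, and 10 of their genes were examined beside it. Of 7 tested 3 rose and none fell, with a median of -0.029. Gata6, the transcription factor of large peritoneal macrophages, which mesothelial and other mesenchymal cells also express, rose by 1.34 ± 0.26 (20.2 ± 5.18 against 7.40 ± 2.39 FPKM, limma adjusted p = 0.0171), but not without control 1, control 3, creeping fat 2 or creeping fat 3. Nt5e, the ecto-enzyme CD73, rose by 1.42 ± 0.24 (8.93 ± 1.63 against 2.79 ± 1.07 FPKM, limma adjusted p = 0.0105), and the chemokine gene Cxcl13 was the third. The count was 1 without control 1 or creeping fat 3. Prg4 and Alox15, other markers of these cells, stood at no more than 2.18 and 1.26 FPKM in any library.

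The markers of alternative activation had fold changes of both signs. Arg1, on chromosome 10 from 24915207 to 24927470, encodes arginase 1, which turns arginine into ornithine and urea. It stood at 46.0, 101 and 19.2 FPKM across the creeping fat libraries and at 2.19, 1.78 and 1.36 FPKM across the controls, a ratio of means of 31.2. Every creeping fat library lay far above the controls, and the creeping fat libraries themselves spread over 5.26 times. Arg1 rose by 4.06 ± 0.54 (limma adjusted p = 0.00507), the largest fold change among the 10 genes. It passed under all 14 other settings, from 3.48 without creeping fat 2 to 4.69 by voom on recovered reads. Arg1 was highest in creeping fat 2, the creeping fat library with the least Adgre1 and Csf1r. Genes of hepatocytes, which also make arginase 1, held at most 0.0151% of the FPKM total in any library. Of 5 tested 1 fell and none rose, with a median of 0.34. Serpina1a, a secreted protease inhibitor of liver, fell by 2.12 ± 0.30 (limma adjusted p = 0.00621). Ass1 (0.97), Alb (0.49), Apoa2 (0.34) and Ttr (0.16) had positive fold changes that did not pass. The part of hepatocytes in the values of Arg1 was not tested. The mitochondrial isoenzyme gene Arg2 rose by 1.05 ± 0.27 (2.68 ± 0.873 against 0.798 ± 0.531 FPKM, limma adjusted p = 0.0414), but not by voom, with a pseudocount of 0.1, with no filter, or without any 1 library other than control 2.

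Mrc1, on chromosome 2 from 14229414 to 14332023, encodes the mannose receptor CD206, which resident macrophages and lymphatic endothelium carry as well. It stood at 71.6, 61.1 and 62.6 FPKM across the creeping fat libraries and at 23.4, 35.1 and 39.5 FPKM across the controls. The groups were separate, and the creeping fat libraries lay within 1.17 times of each other. Mrc1 rose by 1.00 ± 0.21 (limma adjusted p = 0.0225). The call was lost with any 1 creeping fat library left out (fold changes 0.93, 1.05 and 1.03, limma adjusted p = 0.0979, 0.0661 and 0.0778 without creeping fat 1, 2 and 3). Its relative Mrc2, a collagen-uptake receptor of fibroblasts, rose by 2.59 ± 0.14 (52.6 ± 5.86 against 7.87 ± 0.603 FPKM, limma adjusted p = 0.000304).

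Retnla, on chromosome 16 from 48842609 to 48844461, encodes the secreted protein RELM-alpha, also called FIZZ1, which alternatively activated macrophages make and which is also found in white fat. It stood at 9.10, 59.4 and 61.4 FPKM across the creeping fat libraries and at 207, 51.0 and 356 FPKM across the controls. The value of control 2 fell between those of creeping fat, far under control 1 and 3. Retnla did not pass the test (-2.22 ± 0.92, limma adjusted p = 0.159). It passed without control 2 (-3.02, limma adjusted p = 0.0245), and its fold change was -1.35 without creeping fat 1. Retn, which encodes the related hormone resistin of mouse adipocytes, fell by 3.20 ± 0.75 (51.0 ± 37.6 against 480 ± 301 FPKM, limma adjusted p = 0.0304), but not without creeping fat 1, creeping fat 3, control 1 or control 3. Retnlg, a relative made by neutrophils, did not pass (4.56 ± 2.82 against 2.58 ± 3.08 FPKM, limma adjusted p = 0.457), but it passed without control 2 (limma adjusted p = 0.0443).

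Adipocyte genes were measured beside Retnla. The 8 adipocyte genes examined all fell (median -2.77), and their share of all FPKM was 0.194%, 0.405% and 0.261% in the creeping fat libraries, where the controls had 2.41%, 0.994% and 2.58%. Lep, leptin, fell by 4.99 ± 0.51 and Adipoq, adiponectin, by 3.08 ± 0.52 (limma adjusted p = 0.00245 and 0.0105). Per 100 FPKM of Adipoq, Retnla stood at 11.4, 34.0 and 54.6 in the creeping fat and 13.5, 11.3 and 25.6 in the control libraries, so on that scale the groups overlapped and creeping fat was not the lower. The part of adipocyte content in the difference of Retnla was not tested.

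Chil3, on chromosome 3 from 106147554 to 106167564, encodes the chitinase-like protein Ym1, which neutrophils and their precursors also make. It had the lowest mean of the 10 genes in both groups, though Timd4 was lower in creeping fat 1 and 2 and Arg1 in control 2. Chil3 stood at 3.56, 3.55 and 0.890 FPKM across the creeping fat libraries and at 1.25, 2.65 and 0.404 FPKM across the controls. The groups overlapped, with library 3 the lowest of each. Chil3 did not pass the test (0.59 ± 0.46, limma adjusted p = 0.454), with 0.25 without control 3 and 1.01 without creeping fat 3. Of its 50-base windows 28.5% occur in another gene, mostly its near copy Chil4, which was listed at 0 in all 6 libraries, and Gm6522, so the value of Chil3 is uncertain. Chil1, another chitinase-like gene, rose by 0.99 ± 0.22 (1.89 ± 0.741 against 0.421 ± 0.0934 FPKM, limma adjusted p = 0.0251), but not without control 1, control 3, creeping fat 1 or creeping fat 2.

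The promoters of Retnla and Chil3 are shown because both genes are standard readouts of STAT6 in mouse macrophages and both stood apart from Arg1 in these data. Each sequence runs from 250 bases before to 50 bases after the RefSeq start (GRCm38.p6). The first is chr16:48842359-48842658 on the plus strand and the second chr3:106167515-106167814 on the minus strand. Capitals mark matches, on either strand, to the STAT6 spacing TTCNNNNGAA and to the C/EBP core TTNNGNAA.
Retnla: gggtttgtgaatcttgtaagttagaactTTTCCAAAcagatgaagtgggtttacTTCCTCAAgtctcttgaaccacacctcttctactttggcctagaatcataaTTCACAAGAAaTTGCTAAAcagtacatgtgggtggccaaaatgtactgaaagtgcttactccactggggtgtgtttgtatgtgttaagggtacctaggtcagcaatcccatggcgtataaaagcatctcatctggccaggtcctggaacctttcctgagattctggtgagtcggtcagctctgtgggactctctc
Chil3: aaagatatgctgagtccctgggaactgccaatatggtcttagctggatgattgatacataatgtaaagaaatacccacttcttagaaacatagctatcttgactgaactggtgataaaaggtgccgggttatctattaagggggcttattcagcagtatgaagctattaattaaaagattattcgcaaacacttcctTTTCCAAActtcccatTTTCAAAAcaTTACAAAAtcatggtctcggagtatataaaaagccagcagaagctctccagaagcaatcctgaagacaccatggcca
The Retnla window holds 1 STAT6 match, TTCACAAGAA, which starts 145 bases before the start site and is followed after 1 base by a C/EBP match, TTGCTAAA. The Chil3 window holds 3 C/EBP matches and no STAT6 match. Of 32851 RefSeq promoter windows 6.95% hold the STAT6 letters and 40.7% the C/EBP letters. Among them 7 of the 10 genes have a window, of which 1 holds the STAT6 and 6 the C/EBP letters. Arg1, Adgre1 and Csf1r have no window there, so the promoter of Arg1 was not examined. The matches are descriptions of sequence and not of binding.

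Of 13 other tested genes of alternative activation 2 rose and none fell, with a median of 0.25. Mmp12, the macrophage elastase, rose by 2.38 ± 0.55 (31.1 ± 20.1 against 4.15 ± 1.04 FPKM, limma adjusted p = 0.0301), but not with no filter or without control 1, control 3, creeping fat 1 or creeping fat 3. Slc7a2, a transporter of arginine, rose by 1.76 ± 0.25 (10.7 ± 3.66 against 2.38 ± 0.565 FPKM, limma adjusted p = 0.00611). The count was 5 without control 2 and 1 without control 1, control 3, creeping fat 1 or creeping fat 3. Of 10 tested genes of the IL-4 axis 2 rose (median 0.16). Il33, an alarmin of stromal cells that drives type 2 responses, rose by 1.60 ± 0.31 (47.6 ± 10.98 against 15.6 ± 6.37 FPKM, limma adjusted p = 0.0155), and Il13ra1, a subunit of the IL-13 receptor, by 1.54 ± 0.22 (18.7 ± 3.91 against 5.80 ± 1.37 FPKM, limma adjusted p = 0.00627). The cytokines themselves were scarce, with Il4, Il13 and Il5 under 1 FPKM in every library. Stat6 did not pass, at 50.6, 42.8 and 57.7 FPKM against 35.9, 59.8 and 41.6 FPKM (0.16 ± 0.22, limma adjusted p = 0.701). For the IL-4 axis the count was 5 without control 2 and 1, Il13ra1, without creeping fat 1, creeping fat 2 or control 3.

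Genes of classical activation, the counterpart driven by interferon and microbial products, were examined beside them. Of 14 tested 5 rose and none fell, with a median of 0.39. Il1b, interleukin 1 beta, rose by 3.18 ± 0.38 (19.4 ± 10.9 against 1.07 ± 0.385 FPKM, limma adjusted p = 0.00373). Acod1, the enzyme that makes itaconate, rose by 2.49 ± 0.31 (7.57 ± 3.15 against 0.448 ± 0.149 FPKM, limma adjusted p = 0.00403). Fpr2, Ptgs2 and Marcks were the others. Cxcl10 had the opposite sign, at 5.3, 2.8 and 7.3 FPKM in creeping fat against 9.8, 64.3 and 16.8 FPKM in controls. Each creeping fat library lay below every control, but Cxcl10 did not pass (-1.99 ± 0.65, limma adjusted p = 0.0876). Cxcl9 (-0.76) and Cd40 (-0.28) were also negative and did not pass. The remaining tested genes of the list had positive fold changes. Il1b was highest in creeping fat 1, at 31.3 FPKM against 17.0 in creeping fat 2, whereas Arg1 was highest in creeping fat 2. The count was 8 higher and 1 lower without control 2, and 3 higher without creeping fat 1 or creeping fat 3.

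**Figure D2:**
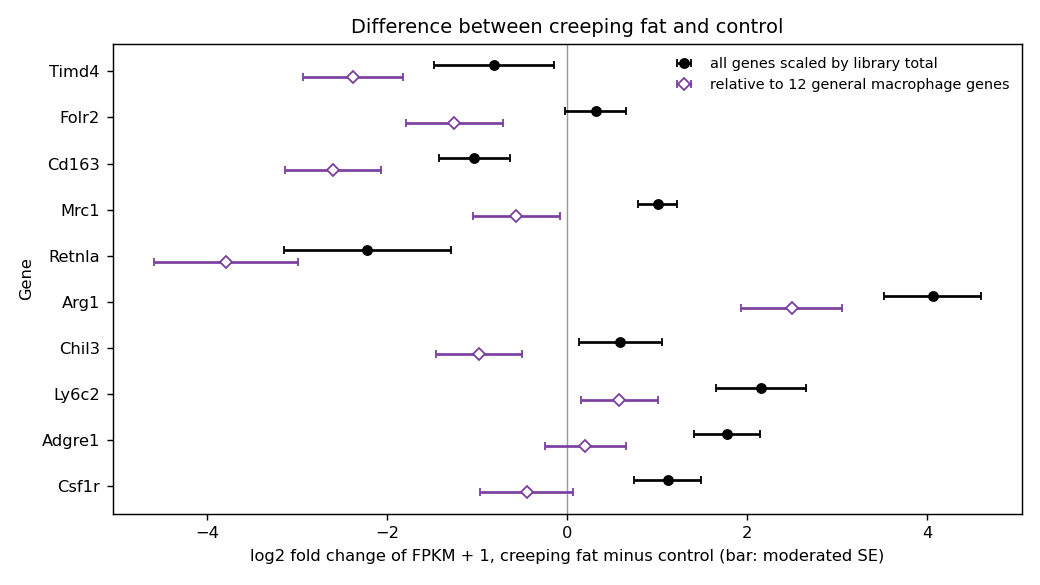
Log2 fold change of FPKM + 1 for each gene, creeping fat minus control, with its moderated SE, on the library scale (black circles) and after each library is centred on 12 general macrophage genes (open diamonds). Arg1 stays above 0 on both scales at 4.06 and 2.49, and Timd4, Cd163 and Retnla lie below 0 on both.

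Since general macrophage genes rose as well, the 10 genes were also set against other macrophage genes of the same library. Each library was centred on its mean log2(FPKM + 1) over the 12 general macrophage genes, which was 7.50, 7.13 and 7.55 across the creeping fat libraries and 5.08, 6.58 and 5.82 across the controls. On this scale most genes of the tissue are lower in creeping fat, 85.5% of all genes tested at an adjusted p under 0.05 with a median of -1.55, and only 0.726% are higher. Arg1 alone of the 10 was higher (2.49 ± 0.56, limma adjusted p = 0.000989). Retnla (-3.79 ± 0.80), Cd163 (-2.60 ± 0.53), Timd4 (-2.38 ± 0.56) and Folr2 (-1.25 ± 0.54) were lower (limma adjusted p = 0.000725, 0.000611, 0.00121 and 0.0355). That is 4 of 10 where 85.5% of all genes were lower, so the calls describe these genes against the 12 macrophage genes and not against the tissue. Folr2 lost its call under 8 of 15 other settings. Adgre1 (0.20 ± 0.45), Ly6c2 (0.58 ± 0.43), Csf1r (-0.45 ± 0.51), Mrc1 (-0.57 ± 0.48) and Chil3 (-0.98 ± 0.48) did not pass (limma adjusted p = 0.673, 0.20, 0.403, 0.268 and 0.0594). Without control 2 Ly6c2 was higher (0.72, limma adjusted p = 0.0441), and Mrc1 (-0.88) and Chil3 (-1.01) were lower (limma adjusted p = 0.0214 and 0.0121), where 0.726% of all genes were higher and 93.3% lower. Chil3 also passed with no filter on low values (-0.98, limma adjusted p = 0.0245), without control 3 (-1.32, limma adjusted p = 0.042), without creeping fat 2 (-1.32, limma adjusted p = 0.0169) and without creeping fat 2 and control 2 (-1.36, limma adjusted p = 0.00344).

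Ratios to Csf1r within a library are given only as a description, because 3 libraries against 3 allow no exact two-sided p under 0.1. Csf1r lay above every control in each creeping fat library, so a gene of unchanged FPKM has lower ratios there. The share of all genes whose ratios do not overlap between the groups was not computed. Per 100 FPKM of Csf1r, Cd163 stood at 2.90, 8.40 and 5.33 across the creeping fat libraries and at 43.4, 8.94 and 35.9 across the controls. All creeping fat libraries were below all controls, with creeping fat 2 just under control 2. Timd4 stood at 1.05, 0.767 and 5.73 against 13.6, 2.64 and 13.8, and Folr2 at 12.8, 20.7 and 17.2 against 50.9, 10.2 and 46.2. In both, control 2 fell among or below the creeping fat libraries while control 1 and 3 lay far above. Retnla stood at 5.25, 36.7 and 31.5 against 439.5, 36.0 and 453, again with control 2 among the creeping fat libraries. Mrc1 stood at 41.3, 37.8 and 32.1 against 49.7, 24.8 and 50.2, so its ratio to Csf1r overlapped between the groups.

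Adgre1 was the steadiest of these ratios. It lay between 24.5 and 26.5 per 100 FPKM of Csf1r in all 3 controls, control 2 included, and between 36.1 and 46.3 in creeping fat. Ly6c2 stood at 17.2, 10.4 and 21.5 in creeping fat against 7.55, 8.70 and 4.40 in controls, and Arg1 at 26.5, 62.4 and 9.84 against 4.66, 1.26 and 1.73. For these 3 genes every creeping fat library lay above every control, a count with no share of all genes to set beside it. Chil3 stood between 0.456 and 2.66 in all 6 libraries, with the groups overlapping.

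**Figure D3:**
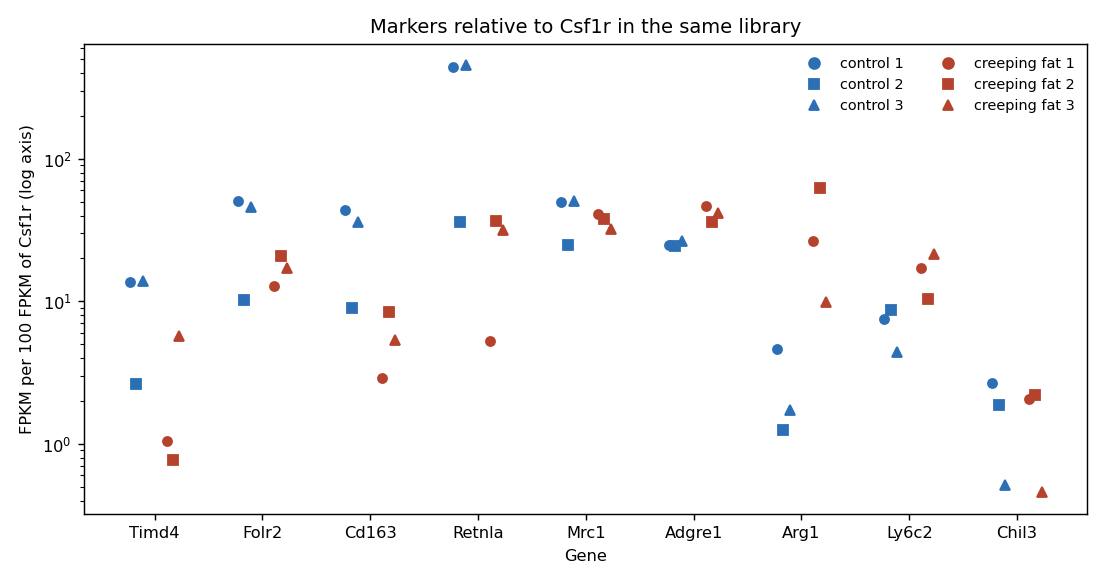
FPKM of 9 genes per 100 FPKM of Csf1r in the same library, on a log axis (blue control, red creeping fat, symbol by library number). Control 1 and 3 lie together at the top for Timd4, Folr2, Cd163 and Retnla while control 2 lies near the creeping fat libraries, and Adgre1, Arg1 and Ly6c2 are higher in every creeping fat library.

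The genes most like 5 of the markers were ranked by Pearson's r of log2(FPKM + 1) over the 6 libraries, among the 8426 tested genes that averaged 5 FPKM or more. With 6 libraries that fall into 2 groups, high values are frequent and are given only as a description. For Retnla the first was Cd163 (r = 0.983), followed by Lrrc57 (0.98) and Popdc2 (0.977). The nearest to Timd4 were Pink1 (0.963), Ipo13 (0.958) and Supt7l (0.956), and only 3 genes had an r above 0.95. The nearest to Arg1 were Csrp2 (0.998), Plk2 (0.996) and P3h4 (0.995). Csrp2, a LIM protein, shared the peak of Arg1 in creeping fat 2, at 67.2, 96.1 and 54.1 FPKM across the creeping fat libraries against 26.6 to 29.9 FPKM in controls. The nearest to Ly6c2 were Ubald2 (0.995), Zdhhc1 (0.994) and Clec7a (0.993), the last of which encodes the beta-glucan receptor Dectin-1 of myeloid cells. Among the nearest to Csf1r were Prcp (0.999) and Nfam1 (0.997), and 451 genes had an r above 0.95 with Csf1r.

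Markers of other cells that make some of these transcripts were measured beside them. Of 8 tested neutrophil genes 2 rose and 1 fell (median 0.79), and the list's share of all FPKM was 0.0305% to 0.0599% (creeping fat) and 0.00565% to 0.016% (controls). Mmp9, a gelatinase also made by macrophages, rose by 3.33 ± 0.25 (76.0 ± 19.6 against 6.65 ± 1.74 FPKM, limma adjusted p = 0.000863), and S100a8, a calcium-binding protein of neutrophils and monocytes, by 2.10 ± 0.49 (33.4 ± 19.1 against 6.94 ± 4.03 FPKM, limma adjusted p = 0.0309), the latter not without control 1, control 3, creeping fat 1 or creeping fat 2. Elane, a primary granule protease, fell by 0.96 ± 0.17 but stood at 1.65 FPKM at most, and its call was lost without control 3 or creeping fat 1. Ly6g, the defining neutrophil antigen, stood at 2.72, 0.612 and 0.456 FPKM in creeping fat and at 0, 0.822 and 0.271 FPKM in controls. Its groups overlapped, and it was too low to be tested.

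Of 5 tested eosinophil and mast cell genes none was called by limma or by voom, 0 also at an unadjusted p under 0.05 (median -0.055). The most abundant, the mast cell protease gene Tpsb2, stood at 7.34 ± 4.56 against 7.08 ± 2.78 FPKM, and Siglecf, Epx and Ccr3, which define eosinophils, were under 1 FPKM in every library. Of 9 tested dendritic cell genes none was called by limma or by voom (1 lower at an unadjusted p under 0.05, median -0.58, and 1 higher without control 2). Itgax, the integrin CD11c, stood at 21.4, 7.74 and 24.9 against 2.80, 13.2 and 4.38 FPKM (limma adjusted p = 0.167, and 0.0176 without control 2). Its fold change of 1.375 ran against most of the list. Clec9a (-1.375), Siglech (-1.13), Itgae (-0.99), Ccr7 (-0.86), Zbtb46 (-0.58) and Flt3 (-0.53) were negative. Cd209a (0.36) and Batf3 (0.052) were positive.

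Of 7 tested lymphatic and sinusoidal genes Pdpn, which fibroblasts also express, rose by 2.17 ± 0.33 (58.6 ± 7.64 against 13.02 ± 5.52 FPKM, limma adjusted p = 0.00775), and the list, median 0.0077, held 0.103% of the FPKM total in control 2 against 0.0243% and 0.0284% in control 1 and 3. Of 8 blood endothelial genes Kdr and Robo4 fell, by 0.86 ± 0.19 and 0.78 ± 0.18 (limma adjusted p = 0.0258 and 0.0283), and none rose (median -0.50). Both calls were lost without creeping fat 1, creeping fat 3 or control 3, that of Kdr also without control 1 and that of Robo4 without creeping fat 2. The part of these cells in the values of Chil3, Mrc1 and Ly6c2 was not tested.

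**Figure D4:**
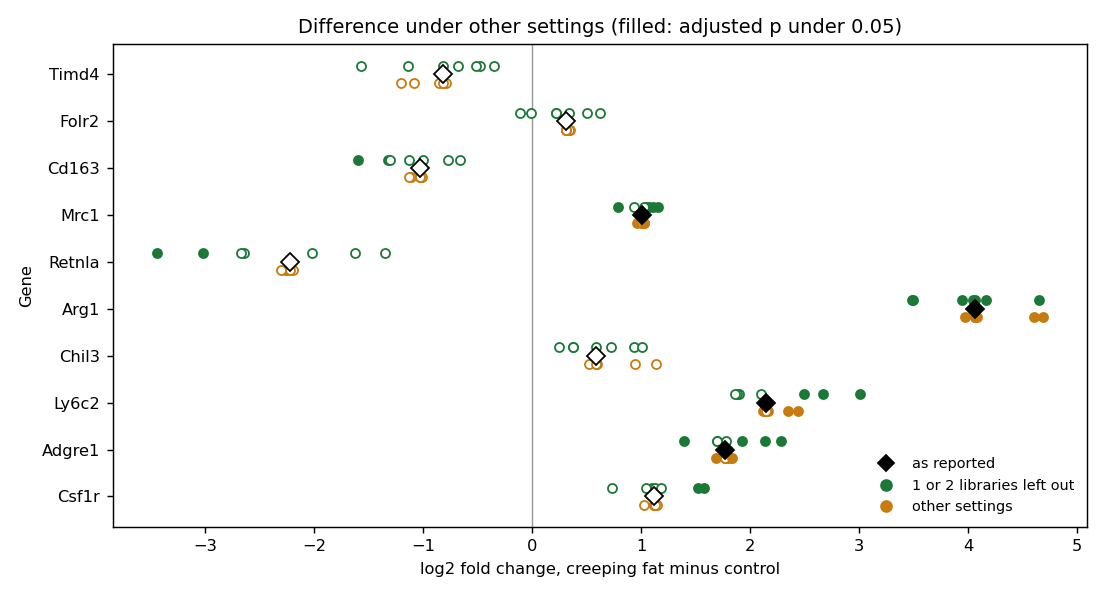
Log2 fold change of each gene, creeping fat minus control, as reported (black diamond), with 1 or 2 libraries left out (green) and under the other settings (orange); filled symbols have an adjusted p under 0.05. Arg1 is filled throughout, and for Folr2 the values lie on both sides of 0, from -0.11 to 0.62.

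On the library scale the direction held for 9 of the 10 genes over all settings tried and turned for Folr2. Relative to the 12 general macrophage genes the direction turned to negative for Mrc1 (-0.57), Csf1r (-0.45), Chil3 (-0.98) and Folr2 (-1.25). The median of all genes tested on that scale was -1.55. Timd4, Cd163 and Retnla were negative on both scales. The counts that follow are on the library scale. Without control 2 Csf1r, Cd163 and Retnla passed as well, which gave 5 genes higher and 2 lower, where 22.6% of all genes tested were higher and 14.5% lower. Without creeping fat 1 or creeping fat 3 the calls of Adgre1, Ly6c2 and Mrc1 were lost. Arg1 was the only one of the 10 called on that scale with each library left out in turn.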

How the data were processed

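Total RNA of the 6 samples was kept at an integrity number of at least 7 and sequenced from stranded, ribosomal RNA-depleted libraries, per the labels' protocols. The authors deposited FPKM per gene, on build mm10 per the submitters' processing notes. Aligner, counter, use of strand and handling of multiply matching reads are not given in the sources used here. Gene positions come from NCBI RefSeq (GRCm38.p6) and transcripts from GENCODE M21.

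Whole reads were recovered from the deposited FPKM for all 18714 genes above 0, which gave 31186018 to 43415696 reads per library. The 12812 genes that reached 1 FPKM in 3 or more libraries were tested with limma 3.58.1 (R 4.3.3) on log2(FPKM + 1), 3 creeping fat against 3 control libraries, with a trend on mean level, and p-values were adjusted by Benjamini-Hochberg across them at 0.05. Fold changes on this scale understate those of low genes. A second fit centred each library on 12 general macrophage genes. Recovery and fit were tested on simulated data. Of 50 genes simulated at each of -1.5 and 1.5 on the log2 scale, limma called 38 and 36, and at -3 and 3 it called 44 and 48.

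The 10 genes, the other lists and the settings were chosen with earlier results of these data known, and no list was tested as a set. Named besides the 10 were the called genes of each list with the largest rise and fall, at most 2 each, the most abundant gene where none was called, near copies above 1 FPKM and the 3 genes of likest pattern. Other genes named were chosen after their values were seen. Some items these rules name are not reported here. Alternatives were another pseudocount (0.1), no filter, a mean of at least 5 FPKM, quantile normalization, rescaling without seminal vesicle and pancreas genes, each library left out, creeping fat 2 and control 2 left out, a replicate block, centring on Adgre1 and Csf1r and, added after seeing the data, limma's voom on recovered reads.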

Additional observations from a re-analysis of the deposited data

How the results depend on the processing

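With 3 libraries a group, and 1 fewer when a library is left out, the counts of calls moved widely. Of all genes tested 1198 were higher and 872 lower. Leaving out each library in turn gave 576 to 2896 higher and 287 to 1857 lower, and leaving out creeping fat 2 and control 2 gave 2713 and 1731. Of the 10 macrophage genes 1 to 5 were higher (4 as reported) and 0 to 2 lower (0 as reported) with a library left out. The low of 1, Arg1, came without creeping fat 1 or creeping fat 3, and the 2 lower genes, Cd163 and Retnla, came without control 2 or without both. Relative to general macrophage genes 1 to 2 were higher with a library left out and 2 without both (1 as reported), and 3 to 6 lower (4 as reported). In those fits 71 to 162 of all 12812 genes tested were higher and 9082 to 11953 lower, so most genes of the tissue were lower. The labels give both groups replicate numbers 1 to 3. Deviations of samples with the same number correlated at -0.181, -0.18 and -0.081, and no sample correlated best with its own number. With 3 libraries a group such correlations cannot exclude that samples share an animal or a batch. With the replicate block 636 genes were higher and 378 lower, and of the 10 only 1, Arg1, was higher. On the library scale the direction turned for Folr2 (-0.014 without control 2, -0.11 without both, up to 0.62 without control 3). It also turned for Havcr1 (0.026 without both) and Ly6c1 (-0.35 without control 2, -0.20 without both, up to 0.55 without control 3). Tpsb2 turned as well (0.16 without control 2, 0.49 without creeping fat 1, down to -0.46 without creeping fat 2). The cause was not tested. Voom gave 1199 higher and 873 lower, quantile normalization 1217 and 980. Chil3, at 27 to 198 reads per library, is the gene most limited by depth.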
